A study of Mus musculus with 10 samples.

Results

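Cytochrome P450 families 1 to 3 hold the heme enzymes with which the liver oxidizes drugs, other foreign compounds, steroids, bile acids and fatty acids. The members described here are the protein-coding genes whose symbol starts with Cyp1, Cyp2 or Cyp3 followed by a subfamily letter. The rule found 61 such genes among the 41388 genes of the count files, in 17 subfamilies, and left out 8 pseudogenes of the same families. The Cyp2c subfamily has 15 members, Cyp3a has 9, Cyp2d and Cyp2j have 8 each, Cyp2b has 5, Cyp2a has 4 and Cyp1a has 2, and the other 10 subfamilies have 1 each. RNA-seq was made from whole liver of male C57B/6J mice aged 12 wk, with 1 library per mouse. All mice carried Nampt LoxP/LoxP alleles, so the control livers are floxed and not wild type in sequence. In the NAMPT LKO mice Albumin-cre, which is active in hepatocytes from before birth, deletes Nampt, the enzyme that makes the NAD+ precursor nicotinamide mononucleotide; other liver cells keep the gene. The groups were 3 WT Fast livers and 5 NAMPT LKO livers taken after 24 h of fasting, and 2 WT fast-refeed livers from mice that the labels describe as fasted for 22 h and then refed for 2 h. The text of the study gives a shorter fast and random-fed controls instead, so the nutritional state of these 2 livers is taken here from the labels. No fed or refed NAMPT LKO liver was analysed.

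Total counts per library ranged from 30603080 to 43434139. Levels below are CPM, counts scaled to the size of the library, with TMM factors applied, unless RPKM is named, which also divides by gene length and alone allows 1 gene to be set against another. Nampt itself was at 78 and 67.8 CPM in the WT fast-refeed livers, 63, 73.4 and 141 CPM in the WT Fast livers and 11.8 to 15.3 CPM in the 5 NAMPT LKO livers. The 6 hepatocyte markers examined summed to between 60829 and 108130 CPM in every liver, while the lung and kidney markers stayed at or under 0.13 CPM. Other tissue markers were not near 0. Erythroid markers summed to 278.7 to 1068 CPM, pancreas markers to 3.62 to 7.17 CPM and intestine markers to 70.9 to 218.0 CPM. The intestine sum was highest in NAMPT LKO liver 5, where Fabp2 alone was at 217.9 CPM. There were 3 livers that stood apart before any P450 gene was considered. In NAMPT LKO liver 5 the TMM factor was 0.854 against 0.964 to 1.05 elsewhere, and 23.3% of all tested genes had their highest value of the 10 livers there. In NAMPT LKO liver 3 the acute phase gene Saa1 was at 3276 CPM against 8.4 to 45.5 CPM in the other 4 NAMPT LKO livers. In WT Fast liver 3 the interferon-induced gene Tgtp1 was at 464 CPM against 0.775 and 0.862 CPM in the other 2 WT Fast livers. RNA per cell and the number of cells of a type cannot be told apart in whole-liver RNA.

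These enzymes sit in the endoplasmic reticulum and take electrons from cytochrome P450 reductase (Por). Their transcription is known to be set by ligand-activated receptors: the aryl hydrocarbon receptor (Ahr) acts on Cyp1a genes, the constitutive androstane receptor CAR (Nr1i3) on Cyp2b10 and the pregnane X receptor (Nr1i2) on Cyp3a11. Hepatocyte factors such as Hnf4a and Onecut1 act on many members, and the pattern of growth hormone release makes several of them sex-biased in the mouse: Cyp2d9 is a male-biased gene, and Cyp2b9, Cyp2b13, Cyp2c40 and Cyp2c69 are female-biased. Many members also differ between the zones of the liver lobule, Cyp2e1 and Cyp1a2 lying around the central vein and Cyp2f2 around the portal tract.

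The members lie in a few gene clusters of GRCm38. All 15 Cyp2c genes are on chromosome 19, all 8 Cyp2d genes within 424 kb of chromosome 15 and all 8 Cyp2j genes within 637 kb of chromosome 4, while the Cyp2a and Cyp2b genes are neighbours on chromosome 7. Neighbouring copies share sequence, and this bears on the counts, since the authors kept only reads of 50 bases that align to 1 place. Among all 50-base windows of the annotated transcripts, 100.0% of those of Cyp2c70 and Cyp2j9 occur in no other gene, against 91.3% for Cyp2b10, 95.8% for Cyp2c29, 62.8% for Cyp2d11, 63.0% for Cyp2a5, 45.7% for Cyp2c69 and 39.7% for Cyp2c40. For Cyp3a41a the share is 1.4% and for Cyp3a41b 6.5%, so the level of this pair is not known from these counts.

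Promoters of 6 members are shown, since the results below turn on Cyp2c70 and Cyp2b10 and on 2 pairs of close copies that moved together in a single liver. Each runs from 250 bases before to 50 bases after the RefSeq transcript start on GRCm38.p6, 5′ to 3′ on the gene's own strand. Capitals in Cyp2b9 and Cyp2b13 mark the 2 bases at which these promoters differ, T48C and C104T, counted from 1 at the 5′ end, with the Cyp2b9 base before and the Cyp2b13 base after the position. In the Cyp2c promoters capitals mark the letters CAAAGTCCA, a core that the hepatocyte factor HNF4 is known to bind. The Cyp2b10 promoter has no capitals. The regions are chr7:26173159-26173458 (plus strand), chr7:26061245-26061544 (plus), chr7:25897408-25897707 (plus), chr19:39812765-39813064 (minus), chr19:39886720-39887019 (minus) and chr19:40187237-40187536 (minus).
Cyp2b9: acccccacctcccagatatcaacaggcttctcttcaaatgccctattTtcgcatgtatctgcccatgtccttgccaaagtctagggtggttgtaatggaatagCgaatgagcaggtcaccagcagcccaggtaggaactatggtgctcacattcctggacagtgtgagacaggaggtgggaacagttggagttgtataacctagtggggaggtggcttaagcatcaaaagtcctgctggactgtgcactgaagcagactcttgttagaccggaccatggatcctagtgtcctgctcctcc
Cyp2b13: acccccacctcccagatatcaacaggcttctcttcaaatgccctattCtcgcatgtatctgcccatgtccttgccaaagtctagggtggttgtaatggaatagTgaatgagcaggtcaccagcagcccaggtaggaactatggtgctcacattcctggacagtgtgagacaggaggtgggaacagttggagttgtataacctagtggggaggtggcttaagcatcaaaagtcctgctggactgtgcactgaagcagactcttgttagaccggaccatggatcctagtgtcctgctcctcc
Cyp2b10: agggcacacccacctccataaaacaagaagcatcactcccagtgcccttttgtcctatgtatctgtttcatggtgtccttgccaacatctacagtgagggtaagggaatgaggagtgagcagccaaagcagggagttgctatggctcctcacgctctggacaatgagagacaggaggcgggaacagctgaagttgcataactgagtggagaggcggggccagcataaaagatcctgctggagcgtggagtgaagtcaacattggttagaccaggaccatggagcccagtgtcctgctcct
Cyp2c40: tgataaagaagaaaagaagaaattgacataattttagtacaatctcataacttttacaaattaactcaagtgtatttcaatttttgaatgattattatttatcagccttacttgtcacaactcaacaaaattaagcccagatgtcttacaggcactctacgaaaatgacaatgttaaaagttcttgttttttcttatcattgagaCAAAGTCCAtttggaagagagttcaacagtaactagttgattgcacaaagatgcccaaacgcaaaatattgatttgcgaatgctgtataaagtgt
Cyp2c69: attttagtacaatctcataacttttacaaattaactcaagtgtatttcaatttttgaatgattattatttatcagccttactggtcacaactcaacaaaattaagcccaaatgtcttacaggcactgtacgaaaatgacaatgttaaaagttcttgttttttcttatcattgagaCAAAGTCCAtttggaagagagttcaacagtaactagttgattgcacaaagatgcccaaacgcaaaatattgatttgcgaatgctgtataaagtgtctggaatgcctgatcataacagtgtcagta
Cyp2c70: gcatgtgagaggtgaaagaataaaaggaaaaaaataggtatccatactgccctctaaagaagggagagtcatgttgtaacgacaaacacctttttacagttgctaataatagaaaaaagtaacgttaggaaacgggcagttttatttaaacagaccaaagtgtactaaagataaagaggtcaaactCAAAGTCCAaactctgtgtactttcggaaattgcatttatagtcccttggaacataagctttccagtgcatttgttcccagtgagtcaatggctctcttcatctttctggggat

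The Cyp2b9 and Cyp2b13 promoters are 99.3% identical, and that of Cyp2b10 is 71.7% identical to each of them. Cyp2c40 and Cyp2c69 share an unbroken run of 143 bases, which starts at base 158 of the Cyp2c40 window and base 128 of the Cyp2c69 window and holds the marked core. The Cyp2c70 promoter was 45.6% to 50.8% identical to those of the other Cyp2c members with a promoter in the table. RefSeq gave 56 promoters for 53 of the 61 members. The HNF4-type letters CAAAGTCCA, searched on both strands after the sequences had been read, occurred in 10 of these 56 promoters (17.9%) and in 0.5% of all 32851 promoters of the table. The ONECUT-type letters ATTGAT were in 12 of 56 (21.4%, against 7.5% of all), the FOX-type letters TGTTTAC in 10 (17.9%, against 3.6%), the AHR-type letters GCGTG in 11 (19.6%, against 32.4%), the STAT5-type letters TTCNNNGAA in 2 (3.6%, against 8.3%) and the D-box TTATGTAA in 0 (against 0.9%). Each motif was counted on its own, so matches may overlap. Copies of a gene share their promoter sequence and are not independent matches, and a match says only that the letters are present.

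Per length, a few members carried most of the P450 RNA. Cyp2e1, the ethanol-oxidizing P450, had a mean of 5352 RPKM over the 10 livers and 43.6% of the summed RPKM of the 61 members. Cyp3a11, the main drug-metabolizing Cyp3a enzyme of the mouse, followed with 1948 RPKM (15.9%), and Cyp2d9, a testosterone hydroxylase, with 833 RPKM (6.8%). The 10 highest members made up 87.9% of the sum and the 20 highest 97.9%. By mean level, 16 members were above 100 RPKM, 25 lay between 1 and 100 RPKM and 20 were under 1 RPKM. The highest member of the remaining subfamilies was Cyp2a12 with 351 RPKM, Cyp2f2, a naphthalene-oxidizing enzyme, with 326, Cyp2j5, an arachidonic acid epoxygenase, with 199.5, Cyp2c50 with 192, Cyp1a2 with 156, Cyp2b10 with 8.94, Cyp2u1 with 4.18 and Cyp2r1, the vitamin D 25-hydroxylase, with 4.05 RPKM. Cyp2w1 and Cyp2b23 had a count of 0 in every library.

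The 61 members took 2.26% and 2.29% of all counts in the WT fast-refeed livers, 2.3% to 2.73% in the WT Fast livers and 2.06% to 2.8% in the NAMPT LKO livers. Their summed level was 21896 and 22218 CPM in the WT fast-refeed livers, 22606 to 28731 CPM in the WT Fast livers and 20250 to 28354 CPM in the NAMPT LKO livers. Both WT fast-refeed livers were thus below the 3 WT Fast livers in this sum, and the NAMPT LKO livers ranged from below both WT groups to within the WT Fast range. The Cyp2e share of the summed RPKM was highest in NAMPT LKO liver 5, at 53.2%, where the Cyp2d share was lowest, at 10.9% against 15.2% to 20.9% in the other 9 livers.

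**Figure D1:**
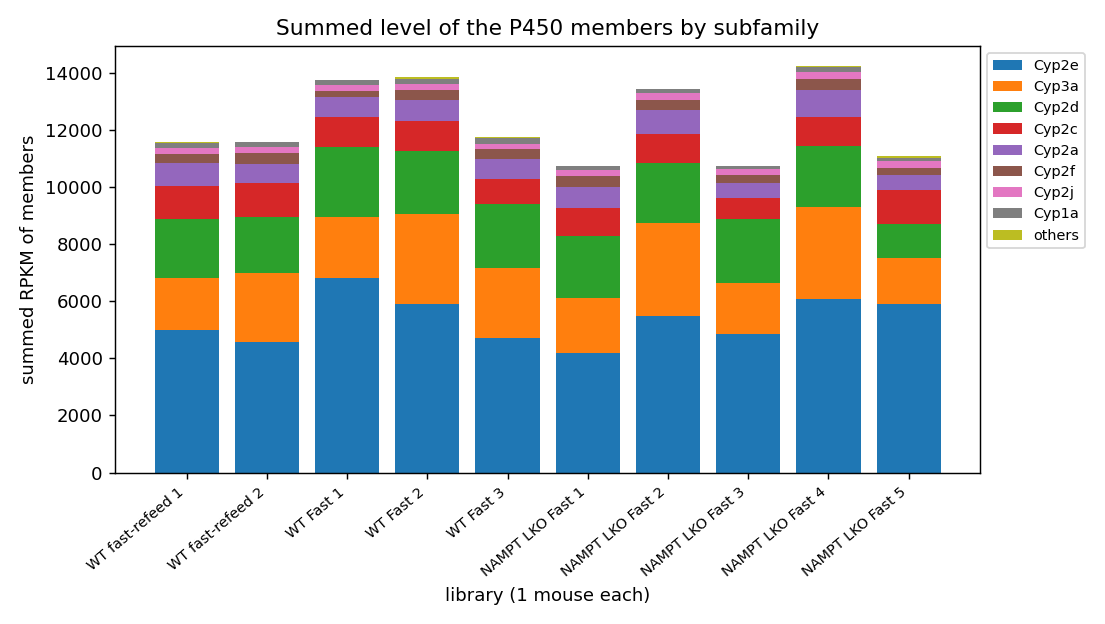
Summed RPKM of the P450 members in each of the 10 livers, stacked by subfamily; each bar is 1 library and the axis starts at 0. Cyp2e (Cyp2e1 alone) is the tallest part of every bar, and its share is highest in NAMPT LKO liver 5 (53.2%).

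A filter of more than 1 CPM in at least 1 library kept 48 of the 61 members, in 14 subfamilies. Of these, Cyp1b1, Cyp2b13 and Cyp2s1 passed it in a single group, so their differences between groups are partly set by the filter. The 13 members that did not pass include the single genes of 3 subfamilies: Cyp2ab1 reached at most 0.0543 CPM, Cyp2t4 at most 0.323 CPM and Cyp2w1 was at 0. The other 10 were Cyp2b19, Cyp2b23, Cyp2c65, Cyp2c66, 5 Cyp2j genes and Cyp3a41b, of which Cyp2j8 was the highest, at 0.31 to 0.621 CPM in the NAMPT LKO livers. The quasi-likelihood test of edgeR was run on 1 fit of all 10 libraries, with p adjusted over 13444 genes by the Benjamini-Hochberg method, and a gene was called at an adjusted p at or under 0.05. Fold changes are followed by their standard error. A fold change is positive where WT Fast livers are higher than WT fast-refeed livers, or NAMPT LKO livers higher than the WT group compared.

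**Figure D2:**
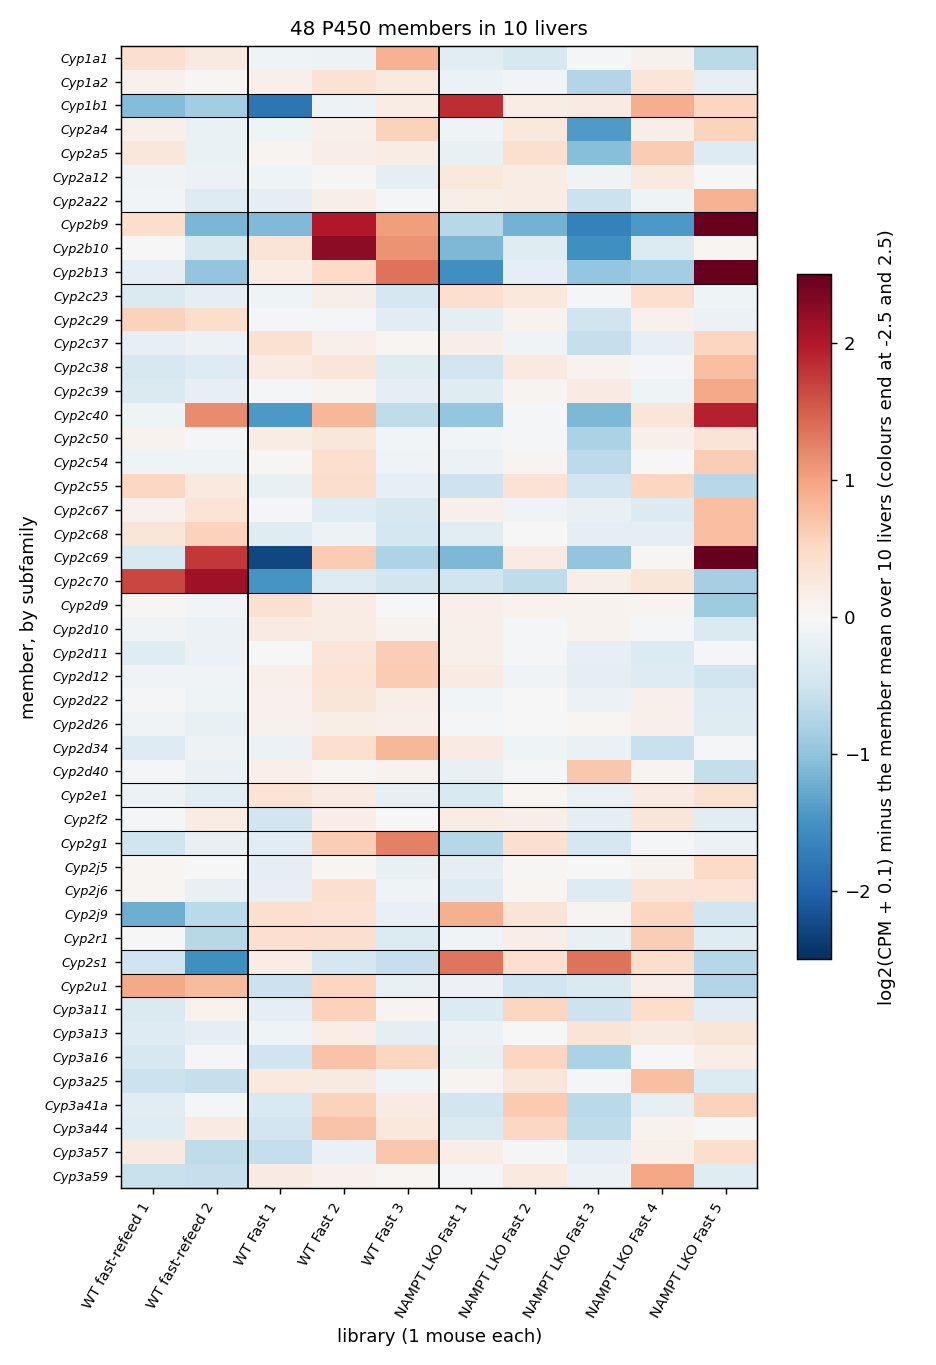
Level of the 48 tested members (rows, grouped by subfamily between lines) in each of the 10 livers (columns), as log2(CPM + 0.1) minus the member's mean over the livers; red is above and blue below that mean, and colours end at -2.5 and 2.5. Cyp2c70 is reddest in both WT fast-refeed livers, Cyp2b10 is reddest in WT Fast livers 2 and 3, and Cyp2b9, Cyp2b13, Cyp2c40 and Cyp2c69 are darkest in NAMPT LKO liver 5.

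The comparison of WT Fast with WT fast-refeed livers asks how the family differs between a long fast and a short refeeding in mice with intact Nampt. Cyp2c70, the enzyme that makes muricholic acids, a class of bile acids found in mice, was the member that differed most and the only member called by this test. It was at 93 and 127 CPM in the WT fast-refeed livers and at 10.4, 23.1 and 21.1 CPM in the WT Fast livers. Every WT fast-refeed liver was thus far above every WT Fast liver. In what follows, values of the WT fast-refeed livers come first where these groups are set against each other. Cyp2c70 was 6.04-fold lower in WT Fast livers, at 109.8 ± 23.8 CPM (SD, n = 2) against 18.2 ± 6.8 CPM (SD, n = 3) (log2 fold change -2.60 ± 0.38, adjusted p = 0.00365). By the labels no unfasted liver was analysed, so the differences between these groups give no order in time. The gene lies at chr19:40153353-40187333, minus strand, on GRCm38. It was called under all 19 alternatives, with adjusted p between 9.25e-10 and 0.0484. The call on 1 of 48 members stands beside 946 of 13444 genes called in all, or 7.04%; at an unadjusted p under 0.05 there were 9 members, against 22.3% of all genes.

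Among the other Cyp2c genes, 6 had higher and 6 lower fitted levels in WT Fast livers. Cyp2c29, an abundant arachidonic acid epoxygenase, was at 747 and 685 CPM in the WT fast-refeed livers and 489, 488 and 422 CPM in the WT Fast livers, with no overlap (log2 fold change -0.62 ± 0.18, adjusted p = 0.064). It did not pass the threshold here, and passed it in 7 of 19 alternatives. Cyp2c50 was at 594 and 541 CPM against 637, 678 and 536 CPM, so the groups overlapped (log2 fold change 0.12 ± 0.26, adjusted p = 0.827). Cyp2c55, a low member known to respond to CAR and PXR, was at 1.77 and 1.45 CPM against 1.05, 1.67 and 1.04 CPM (log2 fold change -0.36 ± 0.44, adjusted p = 0.677).

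The female-biased Cyp2c40 and Cyp2c69, named here after their values were seen, varied widely within each group. Cyp2c69 was at 7.6 and 34 CPM in the WT fast-refeed livers and 1.96, 15.5 and 5.8 CPM in the WT Fast livers (log2 fold change -1.44 ± 1.19, adjusted p = 0.521), and Cyp2c40 at 23.8 and 58 CPM against 9.37, 45.5 and 16.5 CPM (log2 fold change -0.78 ± 0.88, adjusted p = 0.646). In both genes WT fast-refeed liver 2 was the higher of its pair and WT Fast liver 2 the highest of its group.

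Genes outside the Cyp2c cluster also separated the groups, as did 49.7% of all genes tested, without a call by this test. Cyp2u1, a fatty acid hydroxylase, was at 17.4 and 15.8 CPM in the WT fast-refeed livers and 6.23, 13.1 and 7.93 CPM in the WT Fast livers (log2 fold change -0.87 ± 0.31, adjusted p = 0.121). Cyp2j9, of the epoxygenase subfamily Cyp2j, showed the opposite order, with 4.01 and 5.97 CPM in the WT fast-refeed livers and 12.6, 12.2 and 8.34 CPM in the WT Fast livers (log2 fold change 1.15 ± 0.36, adjusted p = 0.081). Neither gene's groups overlapped. Cyp2u1 was called in 2 of 19 alternatives and Cyp2j9 in 7 of 19. Cyp2j5 was at 488 and 467 CPM against 402, 489 and 413 CPM, with overlapping groups (log2 fold change -0.14 ± 0.19, adjusted p = 0.718).

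All 3 tested Cyp2b genes had positive fold changes. Cyp2b10, the classical target of CAR, was at 14.3 and 10.9 CPM in the WT fast-refeed livers and 18.2, 69.1 and 31.5 CPM in the WT Fast livers, so that the lowest WT Fast liver was still above both refed livers (log2 fold change 1.65 ± 0.56, adjusted p = 0.106). WT Fast liver 2 was far above the other 2, and without it the log2 fold change was 0.98. Cyp2b10 was called in 4 of 19 alternatives: DESeq2, edgeR's exact test, voomWithQualityWeights and the quasi-likelihood test with no filter on low genes. Cyp2b9 was at 9.88 and 3.25 CPM against 3.33, 29.4 and 15 CPM (log2 fold change 1.27 ± 1.64, adjusted p = 0.701), with overlapping groups. Cyp2b13 was under 1 CPM in all 5 of these livers (log2 fold change 1.78 ± 1.54, adjusted p = 0.54).

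The 8 tested Cyp3a genes all had positive fold changes, with a median of 0.31 on the log2 scale, and none was called. Cyp3a25 was at 439 and 430.4 CPM in the WT fast-refeed livers and 761, 750.1 and 602 CPM in the WT Fast livers (log2 fold change 0.70 ± 0.27, adjusted p = 0.149), and its close copy Cyp3a59, named after its values were seen, at 33.5 and 33.2 CPM against 57.2, 53.5 and 51.3 CPM (log2 fold change 0.70 ± 0.31, adjusted p = 0.213). Both separated the groups, as did 49.7% of all genes tested. Cyp3a11 did not, with 3484 and 4769 CPM against 3828, 6668 and 4706 CPM (log2 fold change 0.30 ± 0.35, adjusted p = 0.665). Cyp3a13 was at 127 and 135 CPM against 146, 178 and 136 CPM (log2 fold change 0.23 ± 0.17, adjusted p = 0.468), Cyp3a44 at 13 and 18.7 CPM against 11.6, 26.3 and 19.4 CPM (log2 fold change 0.27 ± 0.37, adjusted p = 0.716) and Cyp3a41a at 4.35 and 5.12 CPM against 3.98, 7.78 and 6 CPM (log2 fold change 0.32 ± 0.42, adjusted p = 0.704). Only 1.4% of the 50-base windows of Cyp3a41a occur in no other gene, so its values here and below carry the limit given above. Without WT Fast liver 2, without WT Fast liver 3 or without WT fast-refeed liver 2, 7 of the 8 genes kept a positive sign.

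The 8 Cyp2d genes likewise all had positive fold changes, between 0.20 and 0.68, and kept them under every scaling and with each library left out. None was called. Cyp2d9 was at 1377 and 1289 CPM in the WT fast-refeed livers and 1764, 1531 and 1354 CPM in the WT Fast livers (log2 fold change 0.22 ± 0.26, adjusted p = 0.678). Cyp2d11 was at 15.6 and 17.4 CPM against 19.5, 23.8 and 29.4 CPM (log2 fold change 0.55 ± 0.19, adjusted p = 0.11) and Cyp2d12 at 13.7 and 13.7 CPM against 15.8, 18.4 and 22.6 CPM (log2 fold change 0.47 ± 0.21, adjusted p = 0.224). Both were without overlap, as were 49.7% of all genes tested. The differences were small beside those of Cyp2c70 and Cyp2b10, and 75% of the subfamily moved by less than 0.5 on the log2 scale.

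The remaining named members gave no call. Cyp1a2, which oxidizes aromatic amines and caffeine, was at 315 and 299.7 CPM in the WT fast-refeed livers and 318, 376 and 347 CPM in the WT Fast livers (log2 fold change 0.17 ± 0.23, adjusted p = 0.708), and Cyp1a1 was near 1 CPM in both (log2 fold change -0.027 ± 0.40, adjusted p = 0.977). Cyp2e1 was at 8818 and 8155 CPM against 12442, 11314 and 8469 CPM (log2 fold change 0.34 ± 0.23, adjusted p = 0.417), and WT Fast liver 3 lay inside the refed range. Cyp2f2 was at 638 and 753 CPM against 474, 737 and 664 CPM (log2 fold change -0.15 ± 0.22, adjusted p = 0.737). The coumarin hydroxylase Cyp2a5 was at 853 and 619.7 CPM against 733, 786 and 796 CPM (log2 fold change 0.068 ± 0.38, adjusted p = 0.941), Cyp2a12 at 553 and 526 CPM against 544, 599 and 491 CPM (log2 fold change 0.014 ± 0.15, adjusted p = 0.969) and the steroid hydroxylase Cyp2a4 at 23.6 and 19.1 CPM against 20, 23.4 and 32.2 CPM (log2 fold change 0.24 ± 0.42, adjusted p = 0.789). In each of these 3 Cyp2a genes the groups overlapped. The log2 fold change was 0.51 ± 0.33 for Cyp2r1 (adjusted p = 0.393), 1.09 ± 0.50 for Cyp2g1 (adjusted p = 0.231), 0.93 ± 0.78 for Cyp2s1 (adjusted p = 0.526) and 0.78 ± 0.80 for Cyp1b1 (adjusted p = 0.609).

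Over all 48 tested members, 37 had a positive and 11 a negative fold change in WT Fast against WT fast-refeed livers. Their median log2 fold change was 0.24, against 0.04 over all genes tested, and the median size of the change, whatever its sign, was 0.35 against 0.27. The groups did not overlap in 21 members, 16 of them higher and 5 lower in WT Fast livers; among all genes 49.7% did not overlap, so this count is close to that background. With voomWithQualityWeights, the test named in the methods of the study, 15 members were called, against 24.8% of all genes. They were Cyp2c70, Cyp2c29, Cyp2u1, Cyp2j9, Cyp2b10, Cyp2d11, Cyp2d12, Cyp3a25 and Cyp3a59, with Cyp2c38, Cyp2c67, Cyp2c68, Cyp2d10, Cyp2d22 and Cyp2d26. The study's figure legend for these livers names edgeR's exact test instead. That test called 3 members, Cyp2b10, Cyp2c70 and Cyp2j9, against 8.91% of all genes. Without NAMPT LKO liver 5, which is in neither group but enters the estimate of the spread, Cyp2c70, Cyp2c29, Cyp2c68 and Cyp2j9 were called, and 16.7% of all genes.

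**Figure D3:**
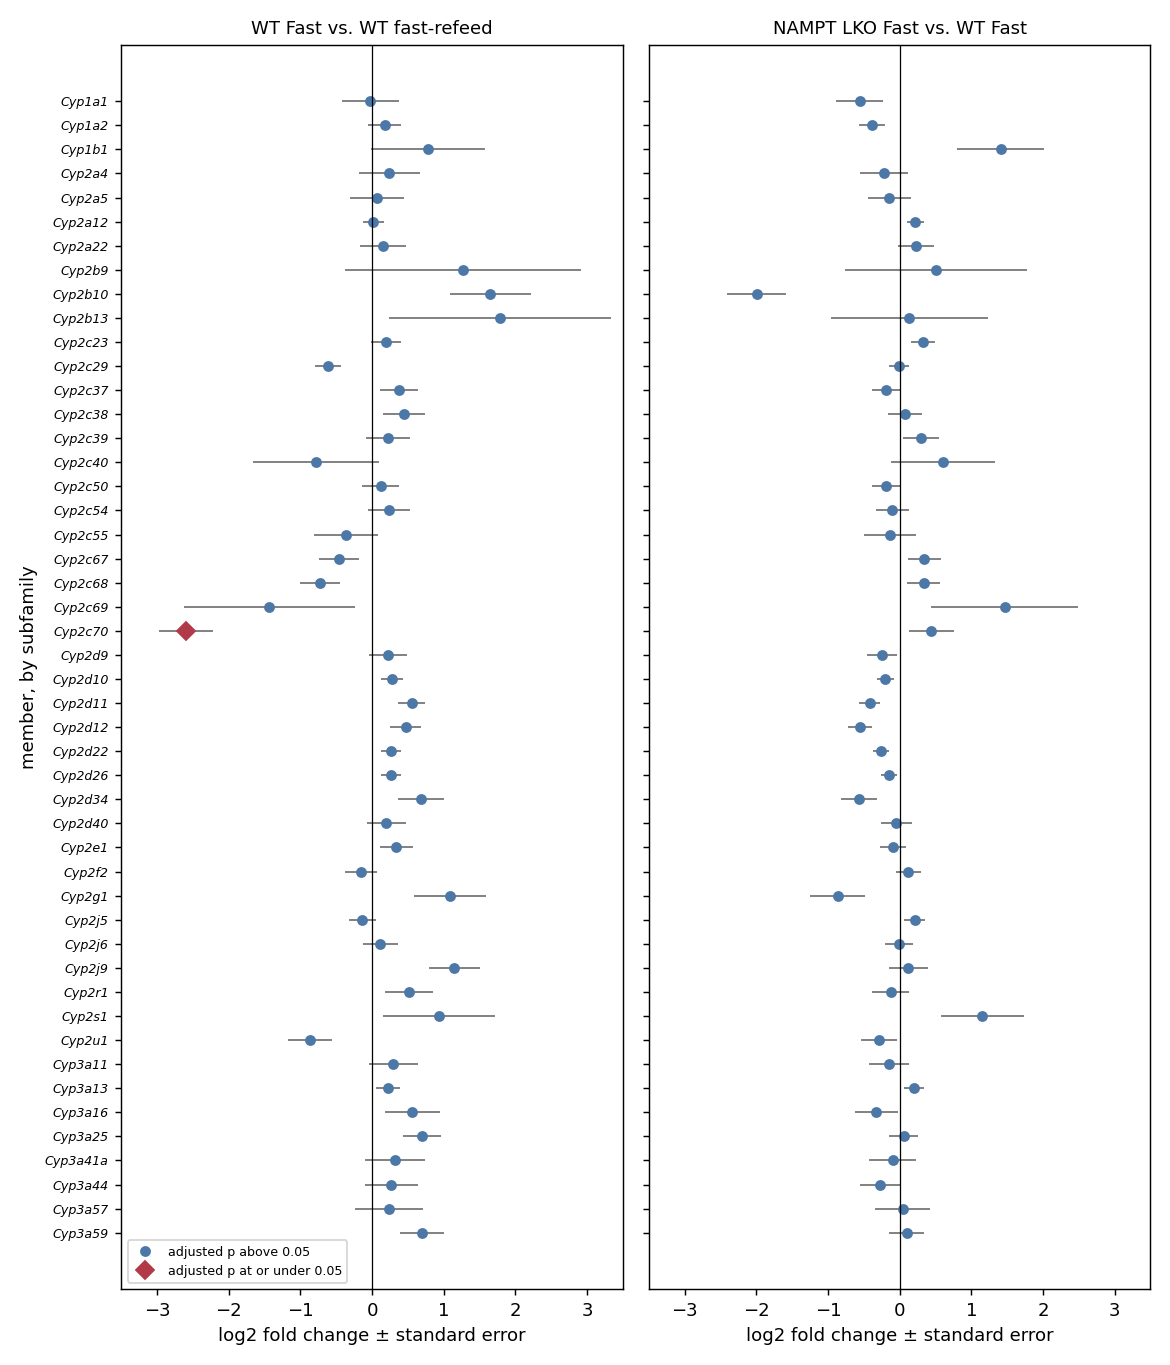
Log2 fold change ± standard error of the 48 tested members, by subfamily, for WT Fast against WT fast-refeed livers (left) and NAMPT LKO against WT Fast livers (right); diamonds are members with an adjusted p at or under 0.05. Cyp2c70 on the left (-2.60) is the only diamond, and Cyp2b10 is the point farthest to the left on the right side (-2.0).

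The comparison of NAMPT LKO with WT Fast livers asks what loss of hepatocyte Nampt does in the fasted state. No member was called by the quasi-likelihood test; 1 gene was called in all, Nampt itself, or 0.00744% of 13444. At an unadjusted p under 0.05 there were 7 members, against 6.03% of all genes. Cyp1b1 had a higher fitted level in NAMPT LKO livers, and Cyp2b10, Cyp2d11, Cyp2d12, Cyp2d22, Cyp2d34 and Cyp2g1 had a lower level. Cyp1b1 passed the filter in NAMPT LKO livers alone, so its place in this count is partly set by the filter. The median log2 fold change of the members was -0.07, that of all genes was near 0, and the median size of the change was 0.22 against 0.14. The groups did not overlap in 1 member, against 3.99% of all genes.

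That member was Cyp2b10. It was at 18.2, 69.1 and 31.5 CPM in the WT Fast livers and at 6.61, 11.7, 4.91, 11.4 and 15 CPM in the 5 NAMPT LKO livers. The highest NAMPT LKO liver was below the lowest WT Fast liver, and the NAMPT LKO range took in the 14.3 and 10.9 CPM of the WT fast-refeed livers. The positive Cyp2b10 fold change of the previous comparison rests on the same WT Fast livers, so the pair of results is not independent. NAMPT LKO livers averaged 9.92 ± 4.08 CPM (SD, n = 5), and WT Fast livers averaged 39.6 ± 26.4 CPM (SD, n = 3). The fitted level was 3.99-fold lower in NAMPT LKO livers (log2 fold change -2.0 ± 0.42, adjusted p = 0.535). The quasi-likelihood test gave it the lowest p of the members, unadjusted p = 0.000557. It was called by edgeR's exact test (adjusted p = 0.00252), by DESeq2 (adjusted p = 0.000733) and by the quasi-likelihood test with no filter on low genes (adjusted p = 0.0125). The exact test and DESeq2 called 0.179% and 0.156% of all genes, and Cyp2b10 was their sole P450 member. Over its 21 alternatives the adjusted p ran from 0.000733 to 0.921 and the log2 fold change from -2.36 to -1.32, so the direction held throughout, and the smallest change was that without WT Fast liver 2. The gene lies at chr7:25897620-25926624, plus strand, on GRCm38.

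The 8 Cyp2d genes all had negative fold changes in NAMPT LKO livers, with a median of -0.26, and 4 of them had an unadjusted p under 0.05. Cyp2d12 was at 15.8, 18.4 and 22.6 CPM in the WT Fast livers and 16.8, 13.7, 12.3, 11.6 and 10.3 CPM in the NAMPT LKO livers (log2 fold change -0.55 ± 0.17, adjusted p = 0.761). Cyp2d11 was at 19.5, 23.8 and 29.4 CPM against 21.2, 18.9, 16.8, 15.2 and 18.7 CPM (log2 fold change -0.42 ± 0.15, adjusted p = 0.798). In both, WT Fast liver 3 was the highest of the 10 livers and the groups overlapped. Cyp2d9 was at 1764, 1531 and 1354 CPM in the WT Fast livers and 1476, 1440, 1445, 1425 and 728 CPM in the NAMPT LKO livers (log2 fold change -0.25 ± 0.21, adjusted p = 0.854), the low value being that of liver 5. The same WT Fast livers gave the positive Cyp2d fold changes of the previous comparison, so the pair of results is not independent. Without NAMPT LKO liver 5 the median was -0.17 with 7 of 8 genes negative.

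Cyp1a1 and Cyp1a2, targets of AHR, had lower fitted levels in NAMPT LKO livers, and neither was called. Cyp1a2 was at 318, 376 and 347 CPM in the WT Fast livers and 264, 278, 176, 362 and 252 CPM in the NAMPT LKO livers (log2 fold change -0.38 ± 0.18, adjusted p = 0.837), lowest in liver 3, the liver with the acute phase genes. Cyp1a1 was at 1.01, 0.992 and 2.06 CPM against 0.875, 0.801, 1.07, 1.19 and 0.65 CPM (log2 fold change -0.56 ± 0.32, adjusted p = 0.837). Cyp1b1, which the liver expresses mainly outside hepatocytes, was at 0.0958, 0.527 and 0.68 CPM in the WT Fast livers and 2.37, 0.673, 0.692, 1.19 and 0.887 CPM in the NAMPT LKO livers (log2 fold change 1.41 ± 0.61, adjusted p = 0.827). The 5 stellate cell markers of the list summed to 169.7 to 221.9 CPM in WT Fast livers and 203.1 to 270.6 CPM in NAMPT LKO livers. None of them was at 0. Col1a1 alone separated these groups, at 1.46, 1.67 and 1.25 CPM against 8.59, 2.82, 7.06, 4.8 and 2.01 CPM. Lrat, Des, Reln and Dcn, the last being the largest part of the sum in every liver, overlapped between them. The part of these markers in the level of Cyp1b1 was not tested. Cyp2s1, an epithelial P450, was at 0.527, 0.31 and 0.272 CPM against 1.3, 0.641, 1.31, 0.651 and 0.236 CPM (log2 fold change 1.16 ± 0.58, adjusted p = 0.837), beside cholangiocyte markers that summed to 6.51 to 11.2 CPM in WT Fast and 13.8 to 16.7 CPM in NAMPT LKO livers, with all 4 of them detected; their part was not tested either. Cyp2g1 was at 0.814, 1.61 and 2.58 CPM against 0.584, 1.38, 0.74, 0.977 and 0.916 CPM (log2 fold change -0.86 ± 0.39, adjusted p = 0.827).

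Cyp2c70, Cyp2c29, Cyp2u1, Cyp2j9 and Cyp3a25, which separated WT Fast from WT fast-refeed livers, overlapped between WT Fast and NAMPT LKO livers, and none of these 5 passed the test. Cyp2c70 was at 20.6, 18.6, 32, 35.8 and 16.3 CPM in the NAMPT LKO livers, overlapping the 10.4 to 23.1 CPM of WT Fast livers (log2 fold change 0.44 ± 0.31, adjusted p = 0.84). Cyp2c29 was at 429, 537, 355, 545 and 452 CPM (log2 fold change -0.008 ± 0.14, adjusted p = 0.995), Cyp2u1 at 8.2, 6.44, 6.97, 10.2 and 5.38 CPM (log2 fold change -0.28 ± 0.25, adjusted p = 0.859) and Cyp2j9 at 17.7, 11.9, 9.95, 13.7 and 6.92 CPM (log2 fold change 0.12 ± 0.27, adjusted p = 0.942). Cyp3a25 was at 669.6, 776.8, 623.6, 1080 and 506.8 CPM (log2 fold change 0.054 ± 0.21, adjusted p = 0.966). Each of these ranges takes in at least 2 of the 3 WT Fast values.

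The most abundant members also overlapped between the fasted groups. Cyp2e1 was at 7564, 10123, 8719, 11269 and 12847 CPM in the NAMPT LKO livers (log2 fold change -0.088 ± 0.18, adjusted p = 0.936) and Cyp3a11 at 3505, 6495, 3120, 6064 and 3657 CPM (log2 fold change -0.15 ± 0.27, adjusted p = 0.927). Cyp2f2 was at 752, 732, 560.2, 815 and 545 CPM (log2 fold change 0.12 ± 0.18, adjusted p = 0.903), Cyp2j5 at 404, 481, 466, 504 and 656 CPM (log2 fold change 0.21 ± 0.15, adjusted p = 0.844) and Cyp2c50 at 532, 549.8, 321, 611 and 702 CPM (log2 fold change -0.18 ± 0.20, adjusted p = 0.875). Cyp2a12 was at 702, 665, 548, 682 and 577 CPM (log2 fold change 0.22 ± 0.12, adjusted p = 0.837) and Cyp2a5 at 615, 914, 332, 1077 and 559 CPM (log2 fold change -0.14 ± 0.30, adjusted p = 0.939). In NAMPT LKO liver 3 Cyp2a5, Cyp2a4, Cyp2c50 and Cyp3a11 were each at their lowest level of the 10 livers. That liver was the lowest of the 10 in 15 of the 48 members, against 7.37% of all genes tested. Fitted changes of the other named members were -0.21 ± 0.34 for Cyp2a4, -0.13 ± 0.36 for Cyp2c55, -0.13 ± 0.26 for Cyp2r1, 0.20 ± 0.14 for Cyp3a13, -0.10 ± 0.33 for Cyp3a41a and -0.27 ± 0.29 for Cyp3a44 on the log2 scale, each with an adjusted p of at least 0.839.

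**Figure D4:**
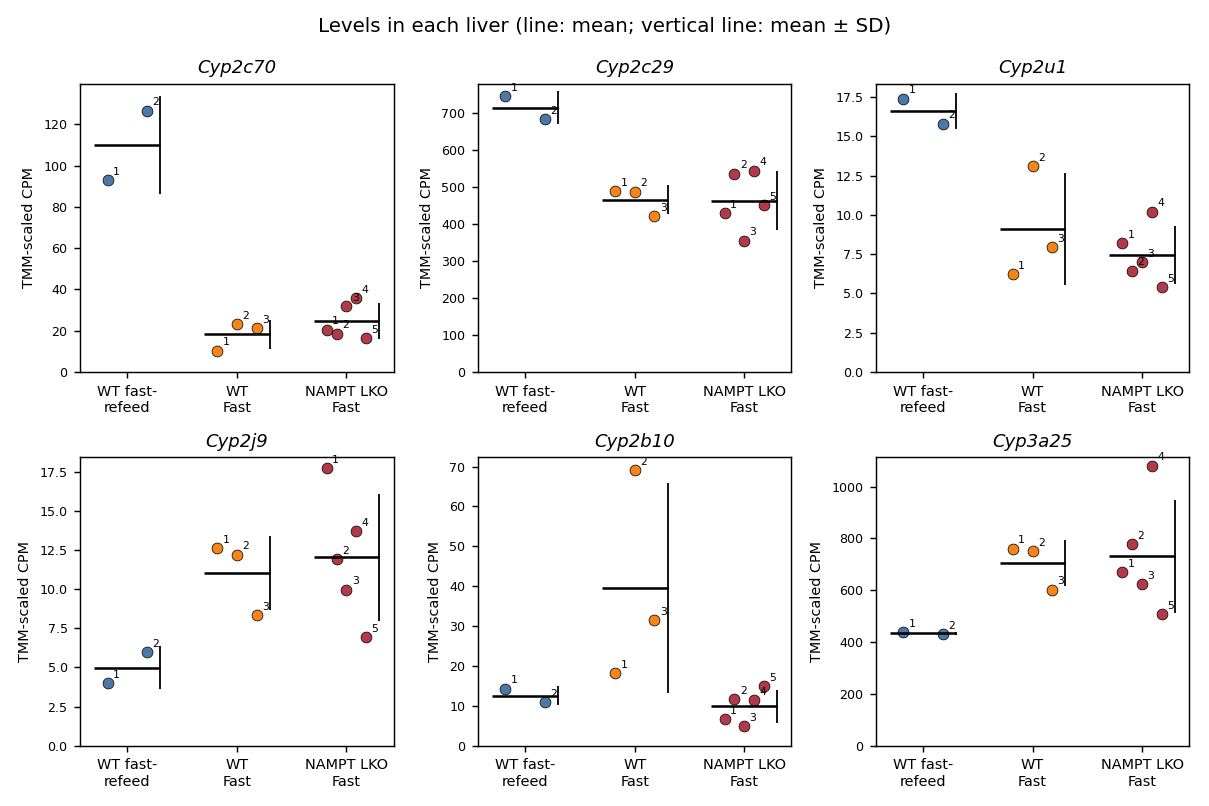
TMM-scaled CPM of 6 members in each liver (points, numbered within the group), with the group mean (horizontal line) and mean ± SD (vertical line); every axis starts at 0. Cyp2c70, Cyp2c29 and Cyp2u1 are highest in both WT fast-refeed livers, Cyp2j9 and Cyp3a25 are lowest there, and all 3 WT Fast livers are above the other 7 for Cyp2b10.

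NAMPT LKO livers were also set beside WT fast-refeed livers, a comparison that shares its libraries with both others and in which genotype and nutritional state differ together. The test called 4 members. In NAMPT LKO livers Cyp2c70 was 4.45-fold lower (log2 fold change -2.15 ± 0.33, adjusted p = 0.0027), Cyp2u1 2.23-fold lower (log2 fold change -1.16 ± 0.27, adjusted p = 0.0227), Cyp2c29 1.54-fold lower (log2 fold change -0.63 ± 0.16, adjusted p = 0.0317) and Cyp2j9 2.41-fold higher (log2 fold change 1.27 ± 0.34, adjusted p = 0.0359). In each of them the 5 NAMPT LKO livers lay wholly on 1 side of the 2 WT fast-refeed livers. Among all genes 11.2% were called. At an unadjusted p under 0.05 there were 10 members, against 26.1% of all genes, and 10 members did not overlap, against 33.5% of all genes. Cyp1b1 is in both of these counts and Cyp2s1 in the first. Both genes passed the filter in NAMPT LKO livers alone, so their places are partly set by the filter. Cyp2b10 did not differ detectably here (log2 fold change -0.35 ± 0.48, adjusted p = 0.704), with overlapping groups.

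The 4 calls depended on the libraries in the fit. Without WT fast-refeed liver 2 none of the 48 members was called, against 1.69% of all genes, and without WT fast-refeed liver 1 Cyp2c70 alone was, against 2.59% of all genes, so calls became fewer over all genes too. Cyp2c70 was called in 18 of its 19 alternatives, Cyp2u1 in 16, Cyp2c29 in 15 and Cyp2j9 in 11. Without NAMPT LKO liver 5 there were 9 calls, against 21.2% of all genes: the 4 above with Cyp2c23, Cyp2c68, Cyp2s1, Cyp3a25 and Cyp3a59. With voomWithQualityWeights there were 11, against 31.8% of all genes. Cyp2s1, called in both of these settings, and Cyp1b1, called in the second, passed the filter in NAMPT LKO livers alone.

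Within the NAMPT LKO group the members varied more than genes at large. For genes with at least 10 counts in each of these 5 livers, the highest level divided by the lowest had a median of 2.14 over 46 members and 1.58 over 13090 genes; without liver 5 the medians were 1.64 and 1.3. Liver 5 was the highest of the 10 livers in 14 of the 48 members and the lowest in 9, against 23.3% and 25.6% of all genes. Cyp2b9, a female-biased steroid hydroxylase, was at 4.47, 3.14, 2.17, 2.63 and 99.9 CPM in the 5 NAMPT LKO livers, a range of 46-fold, and of 2.06-fold without liver 5. Its near-copy Cyp2b13 was at 0.0324, 0.224, 0.0954, 0.109 and 2.6 CPM, from counts of 1, 7, 4, 4 and 88. Cyp2c40 was at 13, 25, 11.7, 31.7 and 99 CPM and Cyp2c69 at 4.47, 11.4, 4.96, 10.1 and 75.5 CPM. Liver 5 was thus the highest of its group in all 4 genes, whose promoters are printed above, and the male-biased Cyp2d9 was lowest there at 728 CPM.

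The contrast of NAMPT LKO with WT Fast livers turned sign with this liver for Cyp2b9, from 0.50 ± 1.27 (adjusted p = 0.952) to -2.36 without it (adjusted p = 0.588). Cyp2b13 gave 0.14 ± 1.09 (adjusted p = 0.985) and did not pass the filter without liver 5. The female-biased Cyp2a4 was also highest of its group in liver 5, at 31.5 CPM against 8.04 to 25.7 CPM. Not all female-biased genes were high there. Cyp2g1 at 0.916 CPM and Cyp3a44 at 16 CPM were within the range of the other NAMPT LKO livers. The same held for Cyp3a16, Cyp3a41a and Cyp3a41b. Of the male-biased genes, Cyp7b1 was lowest of the group in liver 5, at 35.1 CPM against 58.5 to 80.8 CPM. Elovl3 was lowest there too, at 52.3 CPM against 72.0 to 105.9 CPM. Not all were low, as Cyp4a12a was at 430.1 CPM there against 318 to 409 CPM in the other 4. Cyp4a12b at 33.7 CPM and Mup20 at 620.6 CPM lay within the range of the other 4. The Y-linked genes Ddx3y and Uty were at 122.7 and 22.8 CPM in liver 5, above their levels in the other 9 livers, and Xist was at 0.325 CPM. The part in these values of what sets the TMM factor of liver 5 apart was not tested.

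**Figure D5:**
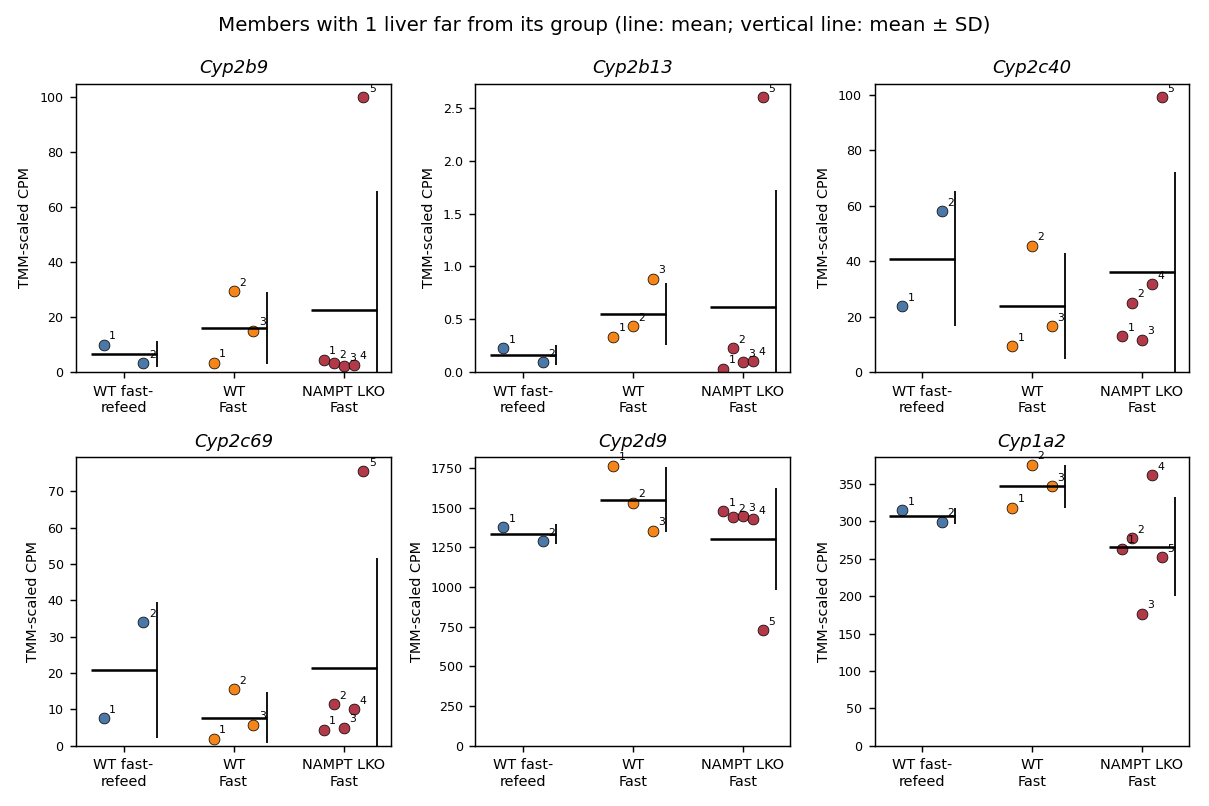
TMM-scaled CPM of 6 members in each liver (points, numbered within the group), with the group mean (horizontal line) and mean ± SD (vertical line, cut at 0); every axis starts at 0. NAMPT LKO liver 5 is far above its group for Cyp2b9, Cyp2b13, Cyp2c40 and Cyp2c69 and far below it for Cyp2d9, and liver 3 is the lowest for Cyp1a2.

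The partners of the P450 enzymes are given from lists chosen for their function. Of 5 electron donors, Por was higher in WT Fast livers, at 557 and 469 CPM in the WT fast-refeed livers against 923, 879.9 and 823 CPM (log2 fold change 0.77 ± 0.19, adjusted p = 0.0338). The other 4 were not called, and the median of the list was 0.02, against 0.04 over all genes. In NAMPT LKO livers Por was at 712, 1026, 922, 671 and 882 CPM, which overlaps WT Fast (log2 fold change -0.055 ± 0.15, adjusted p = 0.954). Of 12 genes of heme synthesis and breakdown, Alas1, which catalyses the rate-limiting step of heme synthesis, was lower in WT Fast livers, at 681 and 1161 CPM against 299.7, 280.2 and 410.0 CPM (log2 fold change -1.48 ± 0.29, adjusted p = 0.0137). Alad, the next enzyme of the pathway, was also lower there, at 312 and 318 against 155, 169.9 and 104 CPM (log2 fold change -1.14 ± 0.27, adjusted p = 0.0276). The heme oxygenase Hmox2 was higher, at 22.2 and 24.1 against 31.2, 35.9 and 35.2 CPM (log2 fold change 0.56 ± 0.11, adjusted p = 0.0139). The list's median was 0.10. Against WT Fast livers no heme gene was called in NAMPT LKO livers, the lowest p being that of Blvrb (log2 fold change -0.51 ± 0.15, adjusted p = 0.761).

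Of 13 receptors and factors that act on P450 genes, 2 were called between WT Fast and WT fast-refeed livers, and the list's median was -0.04. Onecut1, a hepatocyte factor, was at 67.2 and 142 CPM in the WT fast-refeed livers and lower, at 9.37, 6.63 and 6.5 CPM, in the WT Fast livers (log2 fold change -3.80 ± 0.35, adjusted p = 0.000307). Nr1i3, which encodes CAR, was higher in WT Fast livers, at 110.3 and 90.7 against 188, 177 and 133 CPM (log2 fold change 0.72 ± 0.18, adjusted p = 0.0392). In NAMPT LKO livers Nr1i3 was at 141, 124, 118, 139 and 104 CPM, with an overlap of the groups (log2 fold change -0.41 ± 0.14, adjusted p = 0.798), the lowest p of the list in that comparison. Hnf4a was at 1123 and 1101 CPM in the WT fast-refeed and 724, 840.5 and 1086 CPM in the WT Fast livers (log2 fold change -0.33 ± 0.19, adjusted p = 0.332).

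Of 9 tested CAR and PXR targets outside the P450s, Gadd45b was at 3.61 and 4.43 CPM in the WT fast-refeed livers and higher, at 12.6, 17.9 and 19.6 CPM, in the WT Fast livers (log2 fold change 2.05 ± 0.28, adjusted p = 0.00245), and the list's median was 0.24. No gene of it was called in NAMPT LKO against WT Fast livers. The organic anion transporter Slco1a4 had the lowest p there, at 145, 154 and 118 CPM in the WT Fast and 102, 69.6, 76.7, 76.2 and 158 CPM in the NAMPT LKO livers (log2 fold change -0.52 ± 0.24, adjusted p = 0.828). Of 3 tested AHR targets none was called in either comparison, the lowest p being that of Ugt1a6a in both (log2 fold change -0.52 ± 0.16, adjusted p = 0.0813 for WT Fast against WT fast-refeed livers, and log2 fold change 0.35 ± 0.13, adjusted p = 0.801 for NAMPT LKO against WT Fast livers). Of 6 genes of growth hormone signalling, the receptor Ghr was lower in WT Fast livers, at 458 and 464 against 311, 331 and 275 CPM (log2 fold change -0.59 ± 0.16, adjusted p = 0.0497). In NAMPT LKO livers the repressor Bcl6 had the list's lowest p, with 33.4, 36.8 and 27.4 CPM in the WT Fast and 10.1, 17.1, 15, 12 and 20.2 CPM in the NAMPT LKO livers (log2 fold change -1.13 ± 0.41, adjusted p = 0.798).

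The lists of sex-biased, zonated and inflammatory genes bear on members above. None of the 9 tested female-biased members was called in any comparison; the lowest p was that of Cyp2g1, given above, for both WT Fast against WT fast-refeed and NAMPT LKO against WT Fast livers. Among the 11 tested genes of the list of male-biased and sex-check genes, the bile acid enzyme Cyp7b1 was lower in WT Fast livers, at 136 and 172 against 73.7, 56.2 and 66.1 CPM (log2 fold change -1.24 ± 0.27, adjusted p = 0.0197). Elovl3 was higher, at 37.2 and 38.3 against 104, 153 and 108 CPM (log2 fold change 1.69 ± 0.29, adjusted p = 0.00771). Elovl3 also had the lowest p of the list in NAMPT LKO against WT Fast livers (log2 fold change -0.50 ± 0.22, adjusted p = 0.827). Of 15 tested zonated genes, Pck1, a periportal enzyme of glucose synthesis that fasting is known to raise, was called, at 1646 and 1567 against 4631, 3871 and 4260 CPM (log2 fold change 1.41 ± 0.17, adjusted p = 0.00138). No zonated gene was called in NAMPT LKO against WT Fast livers, where Cyp1a2, given above, had the lowest p. Of 16 acute phase and interferon genes none was called in any comparison; the lowest p was that of Tgtp1 for WT Fast against WT fast-refeed and for NAMPT LKO against WT Fast livers, with the single high WT Fast liver given above.

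Between NAMPT LKO and WT fast-refeed livers the same lists held further calls. In NAMPT LKO livers Por was higher (log2 fold change 0.72 ± 0.18, adjusted p = 0.0264), Alas1 was lower (log2 fold change -1.37 ± 0.26, adjusted p = 0.00766) and Alad was lower (log2 fold change -1.07 ± 0.24, adjusted p = 0.0172), while Hmox2 was higher (log2 fold change 0.59 ± 0.10, adjusted p = 0.00536). Among the receptors and factors Onecut1 was lower (log2 fold change -3.20 ± 0.29, adjusted p = 0.000175), and the fasting regulators Ppara and Ppargc1a were higher. Ppara was at 128 and 98 CPM in the WT fast-refeed livers and 142, 190.3, 182, 151 and 151 CPM in the NAMPT LKO livers (log2 fold change 0.53 ± 0.15, adjusted p = 0.0454). Ppargc1a had a log2 fold change of 1.76 ± 0.42 (adjusted p = 0.0236). Nr1i3 was not called there (log2 fold change 0.31 ± 0.17, adjusted p = 0.268). Gadd45b was higher (log2 fold change 1.71 ± 0.26, adjusted p = 0.00287), Ghr lower (log2 fold change -0.54 ± 0.14, adjusted p = 0.037), Cyp7b1 lower (log2 fold change -1.35 ± 0.24, adjusted p = 0.00529) and Elovl3 higher (log2 fold change 1.18 ± 0.27, adjusted p = 0.0192). Of the zonated genes, Pck1 (log2 fold change 1.18 ± 0.16, adjusted p = 0.00158) and the serine dehydratase Sds (log2 fold change 0.90 ± 0.26, adjusted p = 0.0494) were higher. The lists of AHR targets, female-biased members and acute phase and interferon genes held no call; their lowest p were those of Tiparp (log2 fold change 0.69 ± 0.32, adjusted p = 0.196), Cyp2b13 (adjusted p = 0.455) and Saa2 (adjusted p = 0.192). Both Cyp2b13 and Saa2 rest on a single NAMPT LKO liver: Cyp2b13 was at 2.6 CPM in liver 5 against 0.0324 to 0.224 CPM in the other 4, and Saa2 at 3153 CPM in liver 3 against 1.98 to 13.2 CPM. Of the electron donors, Pgrmc1 had the lowest p between NAMPT LKO and WT Fast livers (log2 fold change -0.10 ± 0.12, adjusted p = 0.883).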

How the data were processed

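RNA-seq was made from 10 mouse livers. Per the labels and methods, total RNA was selected by oligo-dT and sequenced as single 50-base reads, which were aligned with STAR and assigned to Ensembl gene models of GRCm38 with featureCounts. The submitters' processing notes give versions 2.5.1a and 1.4.6-p5 of these tools, and the methods of the study give other versions. The counts deposited by the authors are raw numbers of uniquely aligned, unambiguous reads per gene, and the strand setting is not given in the sources used here. The deposited CPM and RPKM values are those counts divided by the library total and, for RPKM, also by gene length; both were recomputed from the counts and differed from the deposited values by floating-point rounding alone. Total counts per library were 30603080 to 43434139.

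The filter required a gene to exceed 1 CPM in 1 library or more and removed ribosomal RNA genes, and the remaining 13444 genes were fitted with edgeR 4.0.16 in R 4.3.3 (TMM, quasi-likelihood test, all 10 libraries in 1 fit, Benjamini-Hochberg adjustment). The standard error is the size of the log2 fold change divided by the square root of F. Groups came from the labels; the mice are separate animals. DESeq2 1.42.0, voomWithQualityWeights of limma 3.58.1, edgeR's exact test, other scalings, filters, samples and left-out libraries were alternatives, and leaving out both NAMPT LKO livers 3 and 5 was added after the data had been seen. The code was tested on simulated data. Named members are the highest of each subfamily by mean RPKM, those called, the 3 with the lowest p for NAMPT LKO against WT Fast livers, and well-known inducible or marker P450 genes; of the lists, called genes and the lowest p are named. Members outside this rule were named after their values were seen. The members and lists were chosen with earlier results of these data known. Promoters are from RefSeq, GRCm38.p6. A result of the lists is not reported here.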

Additional observations from a re-analysis of the deposited data

Results flagged for a closer look

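In 6 P450 members 1 of the 5 NAMPT LKO livers lay far from the other 4, and in each of them it was liver 5. The gap between this liver and the nearest other liver took up 0.976 of the group's whole range for Cyp2b9 (99.9 CPM in liver 5), 0.932 for Cyp2d9 (727.7 CPM), 0.925 for Cyp2b13 (2.6 CPM), 0.902 for Cyp2c69 (75.5 CPM), 0.801 for Cyp2c68 (352.6 CPM) and 0.77 for Cyp2c40 (99.0 CPM), where Dixon's limit for 5 samples is 0.71. In the female-biased Cyp2b9, Cyp2b13, Cyp2c40 and Cyp2c69, and in Cyp2c68, liver 5 was the highest, and in the male-biased Cyp2d9 it was the lowest. The limit was applied to 49 values, the 48 tested members and their summed level, and chance alone passes it in about 1 of 20 such groups. Among all 13444 genes tested 1861 (13.8%) passed it, 1485 of them with liver 5 as the distant liver, and the 6 of 48 members (12.5%) are close to that background. The TMM factor of this liver was 0.854, its part in these values was not tested, and the WT groups of 2 and 3 livers were too small for this comparison.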

How the results depend on the processing

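The counts of called members changed with the test and the libraries, and the cause was not tested. For WT Fast against WT fast-refeed livers, 1 member was called in the main analysis (7.04% of all genes), 2 with library size alone (7.28%), 3 with edgeR's exact test (8.91%), 3 with no filter (3.6%), 4 with DESeq2 (12.2%), 5 without NAMPT LKO livers 3 and 5 (15.6%), 6 with only the 2 groups compared (12.6%), 15 with voomWithQualityWeights (24.8%), and 1 to 4 with single libraries left out (0.798% to 16.7%). For NAMPT LKO against WT Fast livers, 0 were called in the main analysis and 1 (Cyp2b10) by DESeq2 (0.156% of all genes), the exact test (0.179%) or no filter (0.0649%). For NAMPT LKO against WT fast-refeed livers, 4 (11.2% of all genes) became 8 with DESeq2 (16.7%), 9 without NAMPT LKO livers 3 and 5 (17.4%), 2 with only these groups (8.6%), 11 with voomWithQualityWeights (31.8%), and with single libraries left out 0 (without WT fast-refeed liver 2, 1.69%) to 9 (without NAMPT LKO liver 5, 21.2%).

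Among 1246 log2 fold changes of named members under an alternative, which for NAMPT LKO against WT fast-refeed livers cover Cyp2b10, Cyp2c29, Cyp2c70, Cyp2j9 and Cyp2u1 alone, 1153 kept direction and side of the threshold, 28 newly passed it, 16 no longer did and 49 changed sign, 10 for WT Fast against WT fast-refeed and 39 for NAMPT LKO against WT Fast livers. None of those that changed sign was called. Other members also changed sign for NAMPT LKO against WT fast-refeed livers: of the Cyp2b genes 2 of 3 were higher in the main analysis, 0 of 3 with voomWithQualityWeights and 0 of 2 without NAMPT LKO liver 5. For WT Fast against WT fast-refeed livers Cyp2a12 became -0.052 with library size alone and -0.0011 with no filter. With single libraries left out, the range was -0.48 to 0.15 for Cyp1a1, -0.059 to 0.075 for Cyp2a12, -0.15 to 0.3 for Cyp2a5, -0.29 to 0.00045 for Cyp2f2 and -0.029 to 0.55 for Cyp3a44.

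For NAMPT LKO against WT Fast livers, values without NAMPT LKO livers 3 and 5 were 0.17 for Cyp2a5, -2.22 for Cyp2b9, 0.11 for Cyp2c29, 0.16 for Cyp2c55, 0.055 for Cyp2r1 and 0.079 for Cyp3a11. Cyp2b13 became -0.024 with library size alone and -1.75 with voomWithQualityWeights, Cyp2b9 -1.91 with voomWithQualityWeights, and Cyp2c29 0.00052 with only these groups. With single libraries left out, the range was -0.39 to 0.0023 for Cyp2a4, -0.35 to 0.037 for Cyp2a5, -0.13 to 0.66 for Cyp2b13, -2.36 to 1.29 for Cyp2b9, -0.076 to 0.074 for Cyp2c29, -0.35 to 0.12 for Cyp2c55, -0.23 to 0.031 for Cyp2e1, -0.04 to 0.26 for Cyp2f2, -0.057 to 0.27 for Cyp2j9, -0.34 to 2.7e-05 for Cyp2r1, -0.5 to 0.073 for Cyp2u1, -0.31 to 0.099 for Cyp3a11, -0.13 to 0.16 for Cyp3a25, -0.32 to 0.14 for Cyp3a41a and -0.53 to 0.029 for Cyp3a44.

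The labels number WT Fast and NAMPT LKO livers alike, but name no shared litter or day. Same-numbered livers 1 to 3 deviated together by correlations of 0.104, 0.0782 and 0.0971 (mean 0.0931, against -0.0514 for unlike numbers) and were not treated as pairs. In these libraries, fitted with the number as a block and again without it, 0 members were called; Cyp2b9 was -1.96 with and -2.29 without the block, and Cyp3a25 -0.028 and -0.03. The 20 members under 1 RPKM had low counts or none, and the WT groups held 2 and 3 livers. How far depth or group size limits the results was not tested.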
